A study of Mus musculus with 12 samples.

Results

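Mouse embryonic fibroblasts that carried hairpins against both Trim28 and Setdb1 and had been induced to reprogram for 7 days were compared with uninduced fibroblasts that carried a scrambled hairpin. The 3 libraries of each group were chosen by their sample titles, which makes 6 of the 12 libraries of the series. All cells were of strain C57BL/6 and contained FUW-OSKM and FUW-M2rtTA. These are lentiviral constructs that express the factors Klf4, Myc, Sox2 and Oct4, whose gene is Pou5f1, when doxycycline is present. Every group, the uninduced one included, was kept for 7 days in embryonic stem cell medium on a layer of irradiated feeder fibroblasts. The double-knockdown cells received doxycycline and the uninduced cells did not. Another group, induced for 7 days with the scrambled hairpin and called the induced control here, serves as the reference for the full programme, again with 3 libraries. RNA was extracted with Trizol and sequenced from TruSeq libraries. The hairpins and doxycycline differ together between the double-knockdown and the uninduced cells, so their effects cannot be told apart in that comparison. The labels do not say whether feeder cells were removed before harvest, or whether the 3 replicates came from separate cultures, so the p-values reflect the variation among these libraries alone, and that variation may be technical.

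During reprogramming, fibroblasts first lose mesenchymal genes and gain epithelial ones, in a mesenchymal to epithelial transition, and only later switch on the genes of pluripotent stem cells. TRIM28 is a corepressor recruited to DNA by KRAB zinc finger proteins. SETDB1 is the histone methyltransferase that acts with it to place H3K9 trimethylation on repeats, imprinted regions and some genes. The question addressed here is which part of the day 7 programme was present in cells with both hairpins, how far it reached, and which genes stayed at the level of fibroblasts.

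The 6 libraries held 16383264 to 18427147 counted reads, so that 3 reads in a library correspond to 0.163 to 0.183 CPM (counts per 1e6, TMM-normalised). Mitochondrial transcripts took 1.79% to 2.27% of their reads. On the first principal component of all 12 libraries, with 78.9% of the variance, the uninduced libraries lay at 117 to 119.5 and the induced controls at -49.2 to -35.2. Double-knockdown libraries took scores of -29.9 to -16.2. Replicate 1 of the double knockdown, at -16.2, lay nearest to the uninduced cells. Of 14520 genes tested with edgeR's quasi-likelihood test, 4584 (31.6%) were higher and 3956 (27.2%) lower in the double knockdown than in uninduced cells at a Benjamini-Hochberg adjusted p under 0.05, and the median log2 change was 0.01. At least 2-fold differences were found for 1850 higher genes (12.7%) and 719 lower genes (4.95%). These shares are the background for the counts per gene group. A gene silent in uninduced cells was tested only if an induced group had enough reads. Counts of rises among such genes are therefore partly set by the filter. In bulk RNA, fewer cells of a type and less RNA per cell cannot be told apart.

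Against the same uninduced libraries, the induced control had 4743 higher (32.7%) and 4741 lower genes (32.7%), with 2061 (14.2%) and 1043 (7.18%) at least 2-fold apart. Because both comparisons share the uninduced libraries, their values are set side by side and no overlap is counted. Scaling to total counts, without TMM factors, gave 5829 higher and 3619 lower genes in the induced control and moved its median from -0.02 to 0.11. The double knockdown was also tested directly against the induced control. There 2633 genes were higher (18.1%) and 2689 lower (18.5%), of which 469 (3.23%) and 565 (3.89%) differed by at least 2-fold. Scaling to total counts gave 2117 higher and 3278 lower genes in that comparison.

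**Figure D1:**
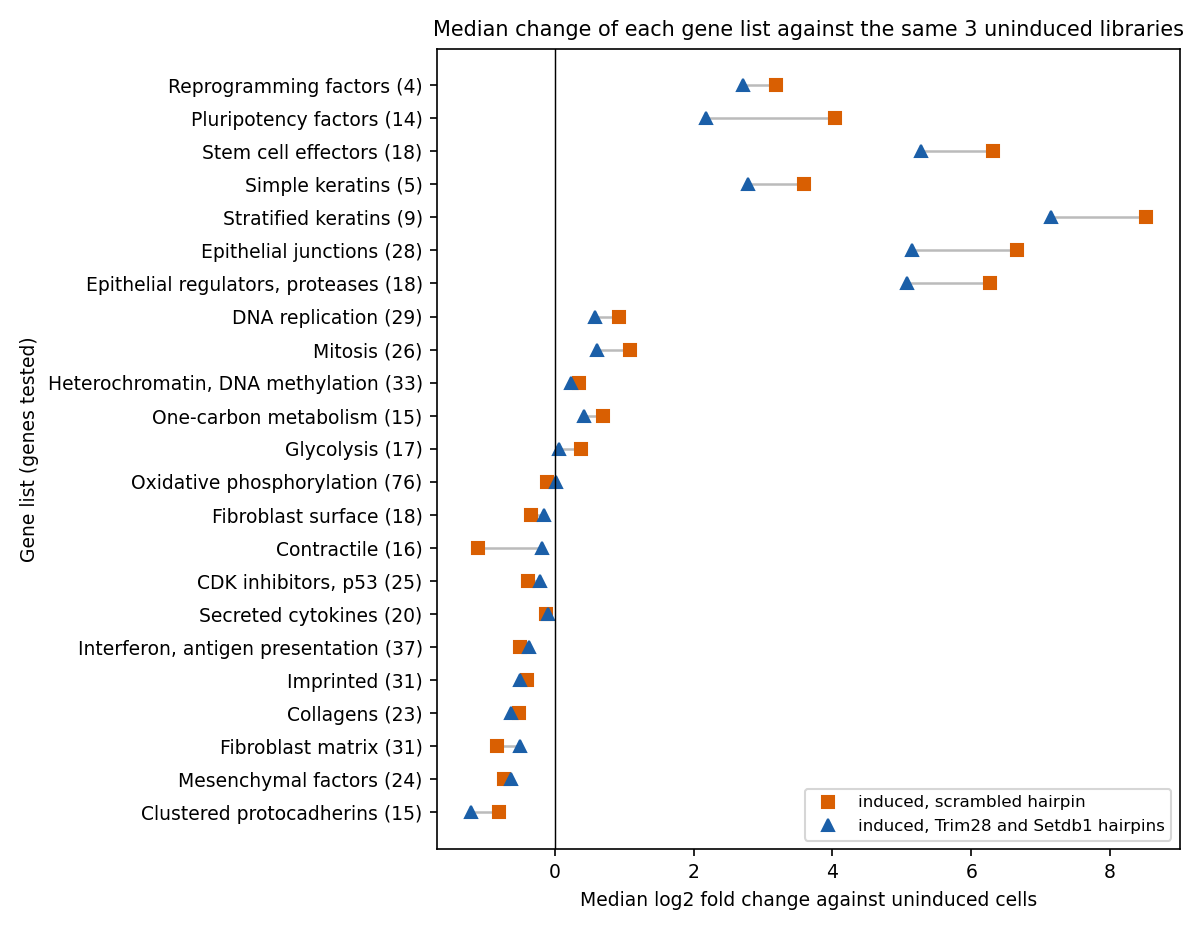
Median log2 fold change of each gene list against the same 3 uninduced libraries, for the induced control (squares) and the double knockdown (triangles), with the number of tested genes in brackets. Stratified keratins had the highest medians, 8.52 and 7.15, and the widest gap on the falling side is at the contractile genes, at -1.11 and -0.19.

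Trim28 and Setdb1, the hairpin targets, were examined first. Trim28 (7:13024152-13031035 in the deposited table, whose build is not given) stood at 261, 266 and 221 CPM in the uninduced libraries and at 107, 95.6 and 107 CPM in the double knockdown, without overlap. It fell by 1.28 on the log2 scale (SE 0.098, adjusted p = 1.25e-08). In the induced control it was at 362, 286 and 337 CPM, above both other groups, and the double knockdown lay 1.67 log2 units below it.

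Setdb1 (3:95323525-95357202) was at 56.8, 60 and 65.3 CPM in uninduced and at 65.2, 70.1 and 54.1 CPM in double-knockdown libraries. The 2 groups overlapped, and the log2 difference of 0.06 had a 95% interval of -0.13 to 0.24 (adjusted p = 0.597). Induced controls held 76.4, 84.5 and 82.8 CPM, and the double knockdown lay below them by a log2 value of -0.36 (SE 0.086, adjusted p = 0.00363). So the RNA of Setdb1 was lower than in the induced control but not measurably lower than in fibroblasts. Protein was not measured.

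All 4 reprogramming factors rose. Reads from the vectors and from the cells' own genes cannot be told apart. Pou5f1, the central pluripotency factor, went from 20, 21 and 17.5 CPM in uninduced cells to 292, 418 and 391 CPM, a log2 rise of 4.23 (SE 0.13, adjusted p = 1.73e-13). Sox2, its partner on DNA, reached 90.2, 129.9 and 114 CPM from 12.6, 13.7 and 6.86 CPM. Klf4 and Myc rose by 1.29 and 2.09 log2 units. In each case no double-knockdown library overlapped an uninduced one.

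Factor levels were nevertheless below those of the induced control, by log2 values of -0.41 for Pou5f1, -0.54 for Sox2, -0.54 for Klf4 and -0.42 for Myc, with adjusted p from 0.000396 to 0.0237. For Sox2 the induced controls were at 177, 121 and 185 CPM and overlapped the double knockdown. Its call was lost without double-knockdown replicate 1 (log2 -0.40, adjusted p = 0.116) or 3 (adjusted p = 0.0515), without induced-control replicate 1 (adjusted p = 0.0503) or 3 (adjusted p = 0.101), and with DESeq2 (adjusted p = 0.0758). Lower factor levels therefore stand beside every reduced gene group described for the double knockdown, and their part in those reductions was not tested.

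**Figure D2:**
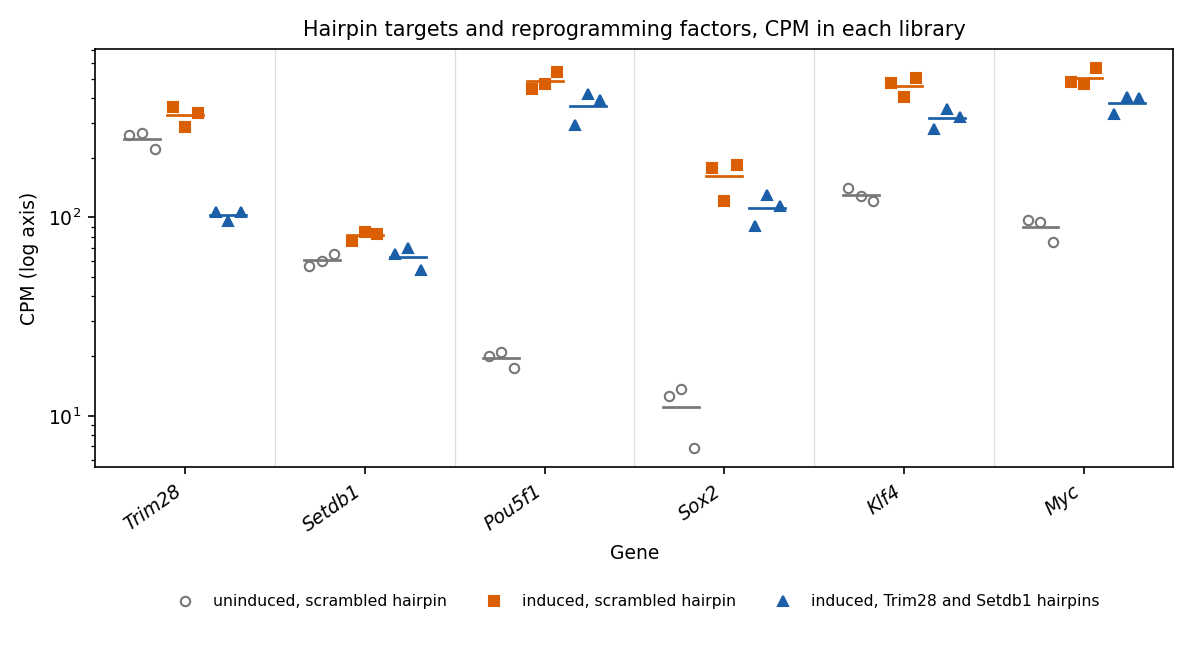
TMM-normalised CPM (log axis) of the hairpin targets and the 4 factors in each library, with a bar at the mean of 3. Trim28 is lowest in the double knockdown, at 95.6 to 107 CPM, Setdb1 overlaps the uninduced cells, and the factors lie far above the uninduced cells and below the induced control, with an overlap for Sox2.

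The pluripotency network was switched on in part. Of 20 listed transcription factors other than the 4 inducing ones, 14 were tested. Among the 20, 7 had 0 reads in uninduced cells, and the 3 of these that were tested passed the filter only through an induced group. Against uninduced cells 10 of them rose and 0 fell, with a median of 2.18, while 9 were below the induced control and 0 above it. Sall4, a zinc finger factor of stem cells, had 0 reads in all 3 uninduced libraries and 14.9, 23.3 and 19.8 CPM in the double knockdown, which is at least 305-fold higher. Tfcp2l1, a factor of naive pluripotency, rose from 1.5, 1.61 and 1.17 CPM to 7.36, 13.7 and 11.9 CPM, while the induced control reached 37.5, 42.9 and 45.3 CPM. The 3 groups did not overlap for Tfcp2l1, and the double knockdown was 1.93 log2 units below the induced control (SE 0.16, adjusted p = 2.03e-07).

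Esrrb, an orphan nuclear receptor of the naive network, lay at 2.06, 5.42 and 3.39 CPM against 0, 0.193 and 0.129 CPM in uninduced cells. Nanog, the late marker of the pluripotent state, was added after its values were seen. It held 1.71, 2.93 and 3.27 CPM, compared with 0.125, 0.193 and 0.453 CPM in uninduced cells and 5.32, 7.53 and 9.26 CPM in the induced control. Its rise against uninduced cells was 3.33 log2 units (SE 0.48, adjusted p = 1.82e-05), and it was 1.48 units below the induced control (SE 0.26, adjusted p = 0.000322). Zscan10, a zinc finger partner of the core factors, had 1 read in the uninduced libraries and 4.12, 6.45 and 6.6 CPM in the double knockdown, a ratio of 270.1 with a 95% counting interval of 48.1 to 10704. Zfp42 (Rex1) had 0 reads in uninduced cells and 1.18, 3.41 and 3.1 CPM, at least 40.5-fold more. Its difference from the induced control, -0.12 (SE 0.33, adjusted p = 0.809), was not called.

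Etv5, a target of FGF signalling in stem cells, rose from 45.8, 43 and 42.3 CPM to 93, 97 and 95 CPM. Some factors did not pass the test against uninduced cells. Sall1 was at 0.706, 1.03 and 1.05 CPM against 0.375, 0.707 and 0.518 CPM, which overlapped (log2 0.80, 95% interval 0.01 to 1.59, adjusted p = 0.0744), although the induced control had 3.92, 4.86 and 6.61 CPM. Tbx3 and Klf5 were not called against uninduced cells either (log2 -0.16 and -0.12).

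Genes that carry out stem cell functions followed the same order. Of 25 listed effectors, 18 were tested. Against uninduced cells 17 rose and 1 fell, with a median of 5.27, or 4.33 with genes unseen in uninduced cells at their lower bound. Of the 25, 8 had 0 reads in uninduced cells, and the 4 of these that were tested passed the filter only through an induced group. The bound does not correct for that selection. Relative to the induced control 14 were lower and 1 higher. The count of 14 became 9 without double-knockdown replicate 1 and also without induced-control replicate 3.

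Podxl, a sialomucin of the stem cell surface, climbed from 1.37, 1.86 and 2.01 CPM to 320.2, 365 and 360.1 CPM, a log2 rise of 7.64 (SE 0.14). L1td1, an RNA-binding protein encoded by a former retrotransposon, reached 114, 127 and 133 CPM from at most 0.194 CPM. Alpl, the alkaline phosphatase used to stain reprogramming colonies, was at 18.3, 21.2 and 18.2 CPM, against 23.4, 19.5 and 21 CPM in the induced control. These overlapped, and the log2 difference of -0.15 was not called (SE 0.12, adjusted p = 0.346). The amino acid transporter Slc7a3 rose from 6.81, 6.3 and 5.24 CPM to 53.1, 62.2 and 70 CPM.

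Lin28a, which blocks let-7 maturation, had 0 reads in uninduced cells and 7.41, 12 and 14.1 CPM in the double knockdown, at least 176-fold higher. The growth factor Fgf4 rose to 7, 8.29 and 9.35 CPM from 1 read in all uninduced libraries. Lefty2, an inhibitor of Nodal signalling, was at 0.294, 0.434 and 0.76 CPM, against 3.57, 6.16 and 5.91 CPM in the induced control, a log2 value of -3.37 (SE 0.33, adjusted p = 1.07e-06). Gdf3, a ligand of the same family, was the member above the induced control, with 2.65, 2.22 and 1.4 CPM against 0.702, 0.972 and 1.1 CPM (log2 1.16, adjusted p = 0.00613). The single fall belonged to Lefty1, from 2.19, 3.09 and 1.81 CPM to 1.53, 1.73 and 1.58 CPM (log2 -0.54, adjusted p = 0.049). That call was lost in 10 of 14 alternatives, with adjusted p between 0.0192 and 0.289 over all of them.

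The epithelial programme was switched on broadly. Keratins of simple epithelia rose in 4 of 5 tested members, with a median of 2.78, and keratins of stratified epithelia in 8 of 9, with a median of 7.15. Against the induced control 4 of 5 and 7 of 9 were lower, and 0 higher.

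Krt8, the type II keratin of simple epithelium, went from 0.937, 0.386 and 0.712 CPM to 562, 676 and 697 CPM, while the induced control had 943, 1043 and 1189 CPM. Krt18, its usual partner, reached 14.8, 18 and 17.2 CPM from 0.562, 0.772 and 0.971 CPM and was 1.64 log2 units below the induced control (SE 0.13, adjusted p = 9.26e-08), against 0.71 for Krt8 (SE 0.10, adjusted p = 4.78e-05). Krt7 was held back further, at 13.8, 17.9 and 15 CPM against 50.2, 46.2 and 73.6 CPM, or -1.87 log2 units (SE 0.17, adjusted p = 3.98e-07). None of these groups overlapped.

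Krt14, the keratin of basal epidermis, was close to complete, with 365, 427 and 446 CPM against 0.874, 0.643 and 1.1 CPM in uninduced cells and 498, 479.6 and 537 CPM in the induced control. Its shortfall of -0.29 (SE 0.084, adjusted p = 0.0126) was no longer called without double-knockdown replicate 1 (adjusted p = 0.0811) or induced-control replicate 3 (adjusted p = 0.0526). Krt17 reached 369, 458 and 479 CPM from at most 0.193 CPM, a log2 rise of 11.26 (SE 0.20). Krt16, a keratin of activated epidermis, was at 113, 119.8 and 133 CPM in the double knockdown, 299.7, 264 and 282 CPM in the induced control and about 1 CPM in uninduced cells. Krt6b fell shortest, with 8.65, 7.37 and 13.3 CPM against 56.4, 48.5 and 65.2 CPM, a log2 value of -2.54 (SE 0.18, adjusted p = 1.18e-07).

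**Figure D3:**
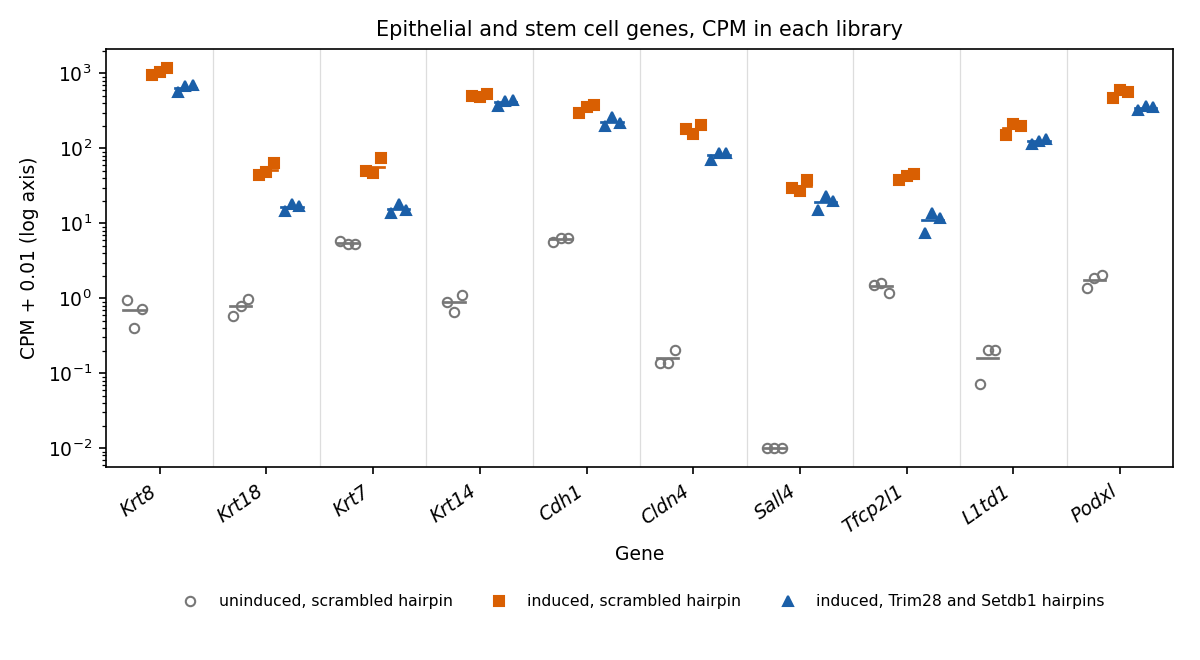
TMM-normalised CPM plus 0.01 (log axis) of keratins, junction genes and stem cell genes in each library, with a bar at the mean of 3; Sall4 has 0 reads in all uninduced libraries. Double-knockdown libraries lie far above uninduced ones and below the induced control at every gene plotted, closest at Krt14 and furthest at Tfcp2l1 and Krt7.

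Junction genes rose in 27 of 28 tested members, with a median of 5.14, and 25 were below the induced control, with a median of -0.96. Cdh1, or E-cadherin, the adhesion molecule of epithelial sheets, went from 5.62, 6.3 and 6.41 CPM to 198, 262 and 219 CPM, while induced controls had 299, 351 and 379 CPM. Cldn4, a tight junction claudin, reached 69.1, 88 and 87.8 CPM from at most 0.194 CPM, a log2 rise of 9.03 (SE 0.23), and lay 1.16 below the induced control. Dsp, the desmosome's link to keratin filaments, rose from 32.2, 33.2 and 36.3 CPM to 378, 501 and 435 CPM. Cgn, a scaffold of tight junctions, rose to 36.4, 46.1 and 45.2 CPM from at most 0.777 CPM. For these genes no groups overlapped.

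The exception was Cldn1. It fell from 6.06, 7.33 and 7.38 CPM to 3, 2.38 and 3.45 CPM (log2 -1.23, SE 0.17, adjusted p = 1.48e-05), and was also below the induced control, at 5.55, 7.05 and 5.81 CPM. Jup, or plakoglobin, which fibroblasts already expressed, rose by 2.08 log2 units. Its difference from the induced control, -0.09 (adjusted p = 0.509), was not called. Desmosomal cadherins were further from the induced control. Dsg2 and Dsc2 had mean levels of 11 and 22.8 CPM, against 41.3 and 89.3 CPM, with log2 values of -1.90 and -1.96.

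Among epithelial regulators and membrane proteases, 17 of 18 rose and 1 fell, with a median of 5.07 (4.73 with unseen genes at their bound), and 15 were below the induced control. Esrp1, the splicing regulator of epithelial cells, had 0 reads in uninduced libraries and 17.1, 25.3 and 24.5 CPM in the double knockdown, at least 351-fold higher. Ehf, an ETS factor of epithelia, went from 0.687, 0.579 and 0.842 CPM to 49.6, 71 and 65.9 CPM. Grhl2, a grainyhead factor that activates Cdh1, rose from 1 read to 5.41, 6.83 and 7.19 CPM, against 14.3, 17 and 18.4 CPM in the induced control. The protease St14 (matriptase) and its inhibitor Spint1 rose by 5.24 and 6.84 log2 units. Trp63, the basal epidermal factor, was the fall, from 5.5, 4.31 and 4.14 CPM to 1.94, 1.3 and 0.877 CPM (log2 -1.76, SE 0.27, adjusted p = 3.96e-05).

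SNAI and ZEB repressors of epithelial genes bind the E-box CACCTG, so promoters of the junction genes are shown with that motif. The 250 bases upstream of each RefSeq start (build GRCm38.p6) were searched for CACCTG on either strand. It was found in 10 of the 16 junction genes with a promoter in the table (62.5%) and in 1 of 12 contractile genes (8.33%). Among all 27025 genes with a promoter, 5252 had it (19.4%). A gene with several promoters was counted if any of them had the motif. A match is a description of the letters and not a binding site or a cause. The promoters of Epcam (chr17:87635729-87635978, plus strand), Cldn4 (chr5:134946935-134947184, minus strand) and Cldn7 (chr11:69965171-69965420, plus strand) are given 5′ to 3′, with the motif or its complement in capitals. Counted back from the start, it begins at -187 and -19 in Epcam, at -14 in Cldn4 and at -97 and -57 in Cldn7.
Epcam: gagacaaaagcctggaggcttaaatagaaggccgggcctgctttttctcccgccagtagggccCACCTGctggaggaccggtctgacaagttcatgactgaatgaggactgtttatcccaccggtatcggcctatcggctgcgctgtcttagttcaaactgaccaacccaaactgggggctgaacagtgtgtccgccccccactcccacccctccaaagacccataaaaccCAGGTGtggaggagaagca
Cldn4: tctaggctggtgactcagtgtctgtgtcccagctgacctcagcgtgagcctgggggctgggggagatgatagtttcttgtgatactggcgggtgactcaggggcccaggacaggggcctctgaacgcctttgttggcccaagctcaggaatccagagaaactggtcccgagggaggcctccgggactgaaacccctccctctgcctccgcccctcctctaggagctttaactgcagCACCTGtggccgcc
Cldn7: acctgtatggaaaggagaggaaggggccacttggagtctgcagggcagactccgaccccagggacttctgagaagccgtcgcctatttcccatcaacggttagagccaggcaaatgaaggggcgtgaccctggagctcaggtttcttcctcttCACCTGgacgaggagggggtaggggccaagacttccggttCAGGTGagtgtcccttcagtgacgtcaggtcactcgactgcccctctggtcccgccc

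Among the SNAI and ZEB repressors, Snai2, Zeb1 and Zeb2 fell against uninduced cells and Snai1 was not called. Against the induced control Snai2, Zeb1 and Snai1 were not called. Zeb2 was above it, a call lost in 2 of 15 alternatives. Of 24 tested mesenchymal transcription factors, a list wider than these repressors, 0 rose and 15 fell against uninduced cells, with a median of -0.63. Snai2 (Slug) dropped from 64.8, 64.7 and 66.7 CPM to 34, 28.3 and 25.4 CPM (log2 -1.16, SE 0.11, adjusted p = 1.2e-07), close to the 35.1, 32.5 and 29.9 CPM of the induced control. Zeb1 went from 200.5, 185 and 195 CPM to 127, 132 and 119 CPM, again overlapping the induced control at 126, 115 and 104 CPM. Snai1 was at 18.7, 16.5 and 16.5 CPM and overlapped the uninduced 24.5, 21.2 and 13.5 CPM, with a 95% interval of -0.62 to 0.24 for the log2 difference.

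Twist1 and Twist2, bHLH factors of mesenchyme, stood at the uninduced level. Twist2 was at 37.5, 41.2 and 33.3 CPM in uninduced cells, at 37.6, 39.2 and 34.5 CPM in the double knockdown and at 24.3, 13.7 and 16.3 CPM in the induced control. The double knockdown overlapped the uninduced cells (95% interval -0.33 to 0.31) and lay 1.02 log2 units above the induced control (SE 0.16, adjusted p = 0.000119). For Twist1 the interval against uninduced cells was -0.12 to 0.23, and the difference from the induced control was 0.63 (SE 0.085, adjusted p = 3.16e-05). Both were named after their values were seen. Of the whole list, 9 members were above the induced control and 3 below it, with a median of 0.15.

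Matrix genes fell, but unevenly. Of 31 tested genes of the fibroblast matrix, 23 fell and 2 rose against uninduced cells (median -0.50). Compared with the induced control 12 were higher and 10 lower, with a median of 0.08. Lox, the enzyme that crosslinks collagen, dropped from 3327, 3275 and 3591 CPM to 1029, 1072 and 957 CPM, a log2 value of -1.74 (SE 0.075, adjusted p = 9.67e-12). That overlapped the induced control at 1157, 1172 and 1022 CPM, and the direct difference of -0.13 (SE 0.074) was not called (adjusted p = 0.172). Fmod, a collagen-binding proteoglycan, fell from 318, 274 and 290.2 CPM to 51, 39.3 and 34.2 CPM. Its difference from the induced control was -0.46 (SE 0.19, adjusted p = 0.0761), and with the replicate number as a block it was called (adjusted p = 0.00569). Ogn and Aspn, proteoglycans of the same family, fell by 2.10 and 2.16 log2 units and were below the induced control too, by log2 values of -0.68 and -1.07.

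Other matrix genes stayed well above the induced control. Thbs1, a matricellular glycoprotein, was at 9822, 10014 and 9379 CPM in uninduced cells, 6213, 5455 and 5372 CPM in the double knockdown and 2946, 2516 and 2346 CPM in the induced control. Ccdc80, an adhesion protein of the matrix, stood in the same order at 1483, 1494 and 1579 CPM, 962, 916 and 928 CPM, and 492, 459 and 448 CPM. Fn1, fibronectin, had mean levels of 19359.5 CPM in uninduced cells, 11543 CPM in the double knockdown and 8447 CPM in the induced control. In each of these the 3 groups did not overlap. Dcn, decorin, rose instead, from 117, 125 and 142 CPM to 200.4, 214 and 191 CPM (log2 0.65, SE 0.075, adjusted p = 1.57e-06).

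Collagen genes did not move as one. Of 23 tested, 18 fell and 4 rose against uninduced cells (median -0.63), while 8 were above and 8 below the induced control. Col12a1 fell from 3355, 3234 and 3361 CPM to 1657, 1474 and 1211 CPM (log2 -1.20). It was not called against the induced control (adjusted p = 0.2) but was with the replicate block and only these groups (log2 -0.22, adjusted p = 0.0113). The basement membrane chains Col4a1 and Col4a2 lost 0.74 and 0.75 log2 units. Col3a1, of fibrillar collagen III, was lower than both other groups, at 2129.8, 1797 and 1585 CPM against 4656, 4323 and 4516 CPM in uninduced cells and 4508, 3110.3 and 3698 CPM in the induced control. So was Col6a3, a chain of collagen VI, with means of 2340.5 CPM in uninduced cells, 2077 CPM in the induced control and 1319.7 CPM in the double knockdown.

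Among the rises, Col7a1, of the anchoring fibrils below epidermis, went from 36.3, 42.6 and 38.8 CPM to 111, 118 and 123 CPM, above the induced control as well (log2 0.80, adjusted p = 4.94e-06). Col17a1, a hemidesmosome collagen of epithelia, had means of 0.594 CPM in uninduced cells and 9.44 CPM in the double knockdown. The fibroblast collagen Col1a1 changed little, from 10572, 9868 and 7626 CPM to 7948, 6822 and 6889.6 CPM. The groups overlapped, and the call (log2 -0.37, adjusted p = 0.0355) was lost without uninduced replicate 1 (adjusted p = 0.149) or 2 (adjusted p = 0.0988), without double-knockdown replicate 2 (adjusted p = 0.103) or 3 (adjusted p = 0.0978), and with total-count scaling (adjusted p = 0.084).

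Fibroblast surface genes gave 8 rises and 8 falls among 18 tested, with a median of -0.16. The integrin Itga11, a collagen receptor, fell from 142, 148 and 136 CPM to 60.7, 45.1 and 47 CPM, within the range of the induced control. Pdgfrb also fell, with means of 284 CPM in uninduced cells, 122 CPM in the induced control and 123 CPM in the double knockdown. Pdgfra, the other PDGF receptor, was at 289, 276 and 303 CPM in uninduced cells, 307, 249 and 227 CPM in the induced control and 169, 145 and 125 CPM in the double knockdown, so that it fell below both (log2 -0.98 and -0.84). Cd34, Cd44 and Ly6c1 were above both other groups. Cd34, a sialomucin of fibroblast and progenitor surfaces, held 146, 146 and 136 CPM against 80.3, 81.8 and 97.7 CPM in uninduced cells and 83.7, 78.8 and 88.5 CPM in the induced control. Nt5e (CD73) rose from 24.4, 24.2 and 30.2 CPM to 99.1, 112 and 97.5 CPM.

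By their median, contractile genes of the double knockdown stood closer to the fibroblast level than those of the induced control. Of 16 genes tested, 1 rose and 6 fell against uninduced cells, with a median of -0.19. Among all genes 31.6% rose and 27.2% fell in that comparison, so the list leaned downward. Against the induced control 15 were higher and 1 lower, with a median of 0.93, beside backgrounds of 18.1% higher and 18.5% lower among all genes. The induced control itself had 15 lower than uninduced cells and 0 higher, with a median of -1.11.

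Acta2, smooth muscle actin and the classic marker of myofibroblasts, was at 1727, 1927 and 1587 CPM in uninduced cells, 1798, 1448 and 1741 CPM in the double knockdown and 722, 571 and 646 CPM in the induced control. The first 2 groups overlapped (log2 -0.07, 95% interval -0.29 to 0.14), and the double knockdown lay 1.36 log2 units above the induced control (SE 0.10, adjusted p = 7.43e-08). Tagln (SM22), an actin-binding protein, read 844, 925 and 887 CPM, 1055, 881 and 1079 CPM, and 336, 337 and 338 CPM in the same order. Its interval against uninduced cells was 0.01 to 0.35 (adjusted p = 0.0629). Without double-knockdown replicate 2 it was called higher (adjusted p = 0.00904), as it was with total-count scaling (adjusted p = 0.00979) and without the low-count filter (adjusted p = 0.0485). Acta2 and Tagln were named after their values were seen.

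Cnn1, calponin, an inhibitor of myosin in smooth muscle, exceeded both groups, with 143, 113 and 142 CPM against 75.4, 81.3 and 73 CPM in uninduced cells and 38.4, 34.2 and 34.9 CPM in the induced control. It rose by 0.79 log2 units against the first (SE 0.11, adjusted p = 8.97e-06) and was 1.89 above the second (SE 0.11, adjusted p = 5.43e-09). Myh11, smooth muscle myosin, and Lmod1, an actin nucleator, lay between, at 17.9, 13.2 and 16.4 CPM and at 28.2, 23.6 and 25.2 CPM. Their uninduced levels were 22.9, 30.5 and 24.2 CPM and 34.6, 38.4 and 36.6 CPM, and no groups overlapped. Myocd, the coactivator that turns on smooth muscle genes, was low throughout, at 0.471, 0.976 and 0.643 CPM against 1.12, 1.54 and 0.712 CPM in uninduced cells and at most 0.243 CPM in the induced control. It was 2.70 log2 units above the latter (SE 0.59, adjusted p = 0.00195). Its difference from uninduced cells (-0.68, adjusted p = 0.113) was called lower without uninduced replicate 3 (adjusted p = 0.0406) or double-knockdown replicate 2 (adjusted p = 0.0496).

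Myl9, a myosin light chain, was at 255, 202 and 236 CPM against 257, 270.2 and 263 CPM (log2 -0.19, adjusted p = 0.0765), and without double-knockdown replicate 1 it was called lower (adjusted p = 0.0265). Cnn2, the calponin of non-muscle cells, was at 604, 515 and 577 CPM against 527, 523 and 476 CPM (log2 0.15, adjusted p = 0.104), and without double-knockdown replicate 2 it was called higher (adjusted p = 0.0386). The exception was Mylk, the kinase of myosin light chains, which fell from 21.2, 24.6 and 26.2 CPM to 14.2, 10.2 and 10.7 CPM (log2 -1.04, SE 0.20, adjusted p = 0.000314). It was also below the induced control, at 25.9, 14.3 and 14.5 CPM (log2 -0.65, adjusted p = 0.0201), a call that was lost without induced-control replicate 1 (adjusted p = 0.123) or double-knockdown replicate 2 (adjusted p = 0.0742) or 3 (adjusted p = 0.0673). Myod1, Myf5 and Myog, which define skeletal muscle, had mean levels of 0.0181 CPM or less in the double knockdown.

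**Figure D4:**
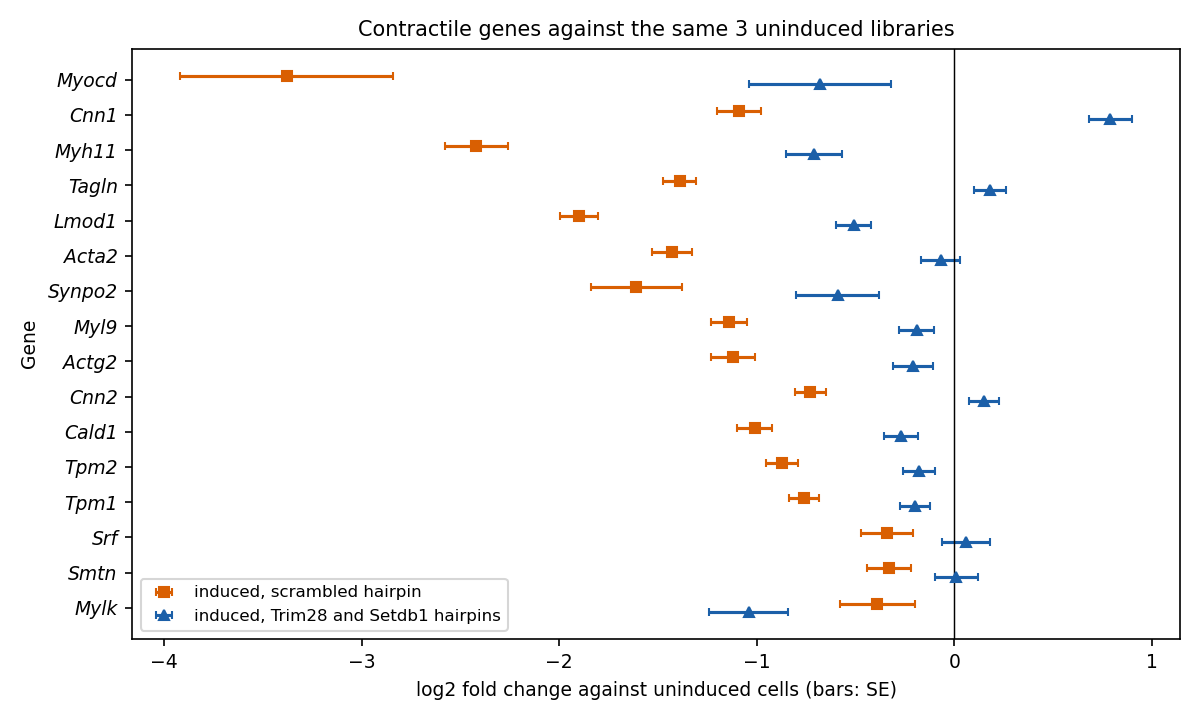
Log2 fold change of the 16 contractile genes against the same 3 uninduced libraries, with SE bars, for the induced control (squares) and the double knockdown (triangles). The double knockdown lies near 0 or between 0 and the induced control for most genes, above 0 for Cnn1 at 0.79, and at -1.04 for Mylk.

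Many contractile genes are driven by SRF through the CArG box, so 2 promoters that contain one are shown. In the same 250-base windows a CArG box was found in 3 of 12 contractile genes with a promoter in the table (25%), namely Cnn2, Myl9 and Srf. It was found in 0 of 16 junction genes and in 439 of all 27025 genes with a promoter (1.62%). The promoters of Cnn2 (chr10:79988350-79988599, plus strand, GRCm38.p6) and Myl9 (chr2:156775214-156775463, plus strand) carry it at -56 and -161 from the start, in capitals.
Cnn2: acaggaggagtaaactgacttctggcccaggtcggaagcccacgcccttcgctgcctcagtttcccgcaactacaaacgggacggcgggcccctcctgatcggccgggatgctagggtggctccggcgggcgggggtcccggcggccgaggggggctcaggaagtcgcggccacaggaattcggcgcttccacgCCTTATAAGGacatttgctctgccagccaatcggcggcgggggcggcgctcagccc
Myl9: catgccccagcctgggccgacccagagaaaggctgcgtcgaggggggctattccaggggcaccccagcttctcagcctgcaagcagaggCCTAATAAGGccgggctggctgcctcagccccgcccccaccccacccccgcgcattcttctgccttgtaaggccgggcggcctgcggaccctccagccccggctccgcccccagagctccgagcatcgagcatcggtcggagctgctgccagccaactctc

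Over all genes tested, 123 were not called against uninduced cells and were at least 2-fold above the induced control. Acta2, Tagln and Myocd are among them. Rgs16, which shuts off G protein signals, was at 85.8, 106 and 96.1 CPM in uninduced cells, 105, 101 and 104 CPM in the double knockdown and 31.6, 31.1 and 28 CPM in the induced control. The double knockdown overlapped the uninduced cells and lay 1.77 log2 units above the induced control (adjusted p = 4.01e-10).

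The cytokine Il6 was at 5.43, 6.69 and 8.48 CPM in uninduced cells, 7.77, 10.4 and 7.07 CPM in the double knockdown and 2.1, 1.7 and 1.85 CPM in the induced control. Without uninduced replicate 3 it was called higher than in uninduced cells (log2 0.48, adjusted p = 0.0278). Siglecg, a sialic acid receptor best known from B cells, and Vnn1, a pantetheinase, lay 2.78 and 2.55 log2 units above the induced control. For Siglecg the values were 7.31, 9 and 7.45 CPM in uninduced cells and 9, 7.26 and 8.94 CPM in the double knockdown, against at most 1.58 CPM in the induced control. Gpr149, an orphan receptor, also belonged here, and without uninduced replicate 1 it was called lower than in uninduced cells (log2 -0.46, adjusted p = 0.0154).

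In the other direction, 122 genes were not called against uninduced cells and were at least 2-fold below the induced control. Slc14a1, a urea transporter, was at 13, 12.5 and 14.2 CPM in uninduced cells, 15.8, 12.6 and 10.5 CPM in the double knockdown and 63.1, 47.6 and 53.5 CPM in the induced control. The log2 difference from uninduced cells was -0.03 (95% interval -0.42 to 0.35), and that from the induced control -2.08 (SE 0.17, adjusted p = 1.34e-07). Ces2g, a carboxylesterase, and Barx2, a homeobox factor, were alike, with 3, 2.55 and 3.27 CPM and 0.588, 1.95 and 1.64 CPM, and both overlapped the uninduced cells. For Egln3 and Trh the call against uninduced cells depended on the setting. Egln3, a hypoxia-induced prolyl hydroxylase, was at 6.47, 12.5 and 9 CPM against 5.93, 5.79 and 6.67 CPM (log2 0.61, adjusted p = 0.0536) and was called higher without double-knockdown replicate 1 (adjusted p = 0.0125). Trh, a neuropeptide gene, was at 0.471, 0.596 and 0.76 CPM against at most 0.194 CPM and was called with DESeq2 (adjusted p = 0.0179).

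Some genes were raised by induction and reached only a small part of the control level. Among genes at least 2-fold above uninduced cells, Klk14, a kallikrein protease of epidermis, reached 6.24, 6.18 and 11 CPM against 52.6, 61.8 and 73.7 CPM. Nlrp10, an epidermal NLR protein, and Lipm, an epidermal lipase, showed log2 values of -2.73 and -2.83. Cnksr2, a scaffold of neuronal signalling, and Fgd5, an endothelial exchange factor, were at -3.39 and -2.97.

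The 8 largest rises against uninduced cells were mostly genes with 0 reads there. Them5, a mitochondrial thioesterase, came first, with 33.8, 38.3 and 41.4 CPM, at least 593-fold higher, followed by the protease Prss32 at 19.6, 29.7 and 31 CPM (at least 421-fold). Esrp1, Zbtb32, Sall4, Mroh4 and Ceacam10 were also unseen in uninduced cells and at least 261-fold higher. Only Krt17 of the 8 had reads in fibroblasts. Them5 and Ceacam10 were above the induced control, by 1.94 and 6.81 log2 units, and the other 6 were below it.

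Several genes were high in the double knockdown and nearly silent in uninduced cells and the induced control. Gsdma3, Cdhr2 and Ceacam10 were not particular to the double hairpin. In the remaining 3 libraries of the series, induced with the Trim28 hairpin alone, Gsdma3 was at 12.5 ± 1.36 CPM (SD, n = 3), Cdhr2 at 5.5 ± 0.109 CPM and Ceacam10 at 10.3 ± 0.183 CPM. For Cd34, Col3a1, Col6a3 and Zdbf2 the means there were 135, 1533, 1235 and 10.9 CPM, beside 143, 1837, 1319.7 and 11.6 CPM in the double knockdown. For Tex19.1 they were 0.241 and 1.51 CPM. The double knockdown was not tested against those libraries. Genes described as apart from both groups differ from uninduced cells and the induced control, and none is called particular to the double hairpin. Ceacam10, of the carcinoembryonic antigen family, was at 16.7 ± 2.23 CPM (SD, n = 3) against 0 CPM in uninduced cells and 0.292, 0 and 0.1 CPM in the induced control. Gsdma3, a gasdermin of skin and gut, was at 15.2, 10.1 and 12.2 CPM against 0 CPM and at most 0.081 CPM, a log2 difference from the induced control of 7.51 (SE 0.34, adjusted p = 1.52e-09). Akr1c21, a hydroxysteroid dehydrogenase, had 0 reads in all libraries of both other groups and 1.71, 1.03 and 1.75 CPM, at least 23.3-fold more than in uninduced cells.

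Cdhr2, a protocadherin of the brush border, was at 5.35, 5.2 and 5.38 CPM against 1 read in uninduced cells, a ratio of 249.5 with a 95% counting interval of 44.4 to 9891. Clec12a, an inhibitory lectin receptor of myeloid cells, and Prrt3, a proline-rich membrane protein, were at 2.18 to 2.45 CPM and 2.55 to 3.71 CPM. Zfp558, a zinc finger gene, was expressed in fibroblasts at 2.31, 2.51 and 2.27 CPM and at 1.87, 3.24 and 2.1 CPM in the induced control, and rose to 24, 30.1 and 25.2 CPM (log2 3.48, SE 0.16, adjusted p = 1.51e-11).

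**Figure D5:**
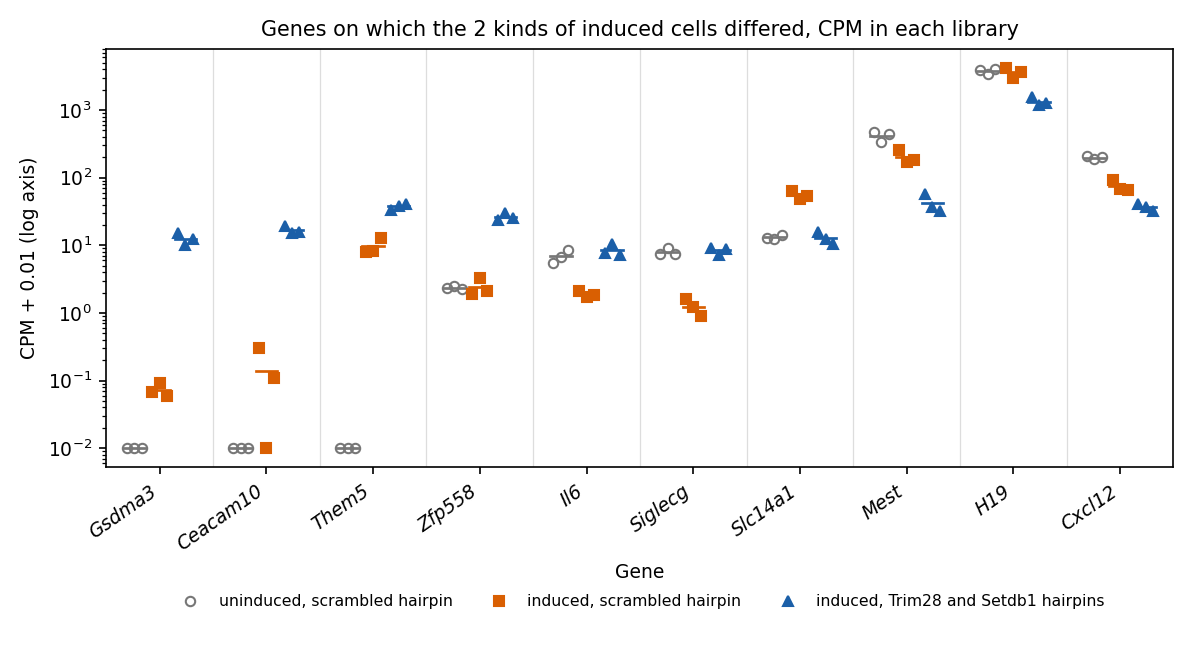
TMM-normalised CPM plus 0.01 (log axis) in each library, with a bar at the mean of 3, for genes higher in the double knockdown than in both groups plotted beside it, genes at the uninduced level and genes below both. Gsdma3, Ceacam10 and Zfp558 lie at 10.1 to 30.1 CPM in the double knockdown, Il6, Siglecg and Slc14a1 overlap the uninduced cells, and Mest, H19 and Cxcl12 are below both.

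Germline genes, many of which are kept silent by methylation in somatic cells, were mostly below the filter. Of 30 listed, 29 were in the table and 9 tested. Against uninduced cells 7 rose and 1 fell, with a median of 1.95, and 4 were above the induced control. Of the 29, 9 had 0 reads in uninduced cells, and such genes could be tested only through an induced group. The rises and the median are therefore partly set by the filter. With a stricter low-count filter 4 rose. Piwil2, a Piwi protein of the piRNA pathway, rose from 0.312, 0.321 and 0.647 CPM to 69.7, 104 and 89.9 CPM, and the induced control had 57.1, 69.5 and 68 CPM. Without double-knockdown replicate 2 the difference between the last 2 was not called (log2 0.29, adjusted p = 0.0616). Tdrd9, a helicase of the same pathway, stepped from 0.25, 0.386 and 0.324 CPM through 1.29, 1.13 and 1 CPM in the induced control to 3.59, 3.31 and 4.15 CPM. Tex19.1, which restrains retrotransposons in germ cells, went from 0 reads to 1.18, 1.3 and 2.05 CPM and was 2.60 log2 units above the induced control. Ddx4 and Dazl, which define germ cells, did not pass the filter, at mean levels of 0.453 and 0.0754 CPM in the double knockdown. Of 16 genes of the 2-cell embryo in the table only Zfp352 was tested, at 0.235, 0.379 and 0.351 CPM.

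Imprinted genes shifted downward, with 19 of 31 lower and 9 higher than in uninduced cells (median -0.50). The induced control shifted in the same way, with 17 lower and 6 higher (median -0.41). In the direct comparison 12 were below the induced control and 8 above it, with a median of -0.06. The summed level of the list was 6410 to 7368 CPM in the double knockdown and 8518 to 11013 CPM in the induced control. With the Trim28 hairpin alone it was 5805 to 6779 CPM. Mest, a maternally imprinted hydrolase gene of mesoderm, dropped from 470, 337 and 448 CPM to 57.6, 37.4 and 31.8 CPM (log2 -3.31, SE 0.21, adjusted p = 9.16e-10). The induced control, at 253, 169 and 183 CPM, lay between without overlap. H19, a noncoding RNA, fell from 3895, 3470.3 and 3982 CPM to 1555, 1202 and 1257 CPM, while the induced control overlapped the uninduced cells at 4221, 2974 and 3634 CPM. Its neighbour Igf2, a fetal growth factor, went from 1606, 1515 and 1603 CPM to 762, 616 and 488 CPM, and the induced control again overlapped the uninduced cells. Plagl1, a zinc finger gene, and Grb10, an adaptor that restrains insulin signalling, fell by 1.83 and 0.75 log2 units.

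Nnat and Zdbf2 rose instead. Nnat, a proteolipid gene, was 1.86 log2 units above uninduced cells and 2.32 above the induced control, and Zdbf2 was 1.44 and 1.43 log2 units above them. Rtl1, a retrotransposon-derived gene of the Dlk1 and Meg3 region, rose from 0.187, 0.0643 and 0.259 CPM to 19.7, 22.9 and 25.6 CPM, but to 36, 41.6 and 43.7 CPM in the induced control. Its antisense transcripts cannot be told apart where counting ignored the strand.

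The 8 largest falls, of which Mest was one, were otherwise among genes of low level in fibroblasts. Cxcl15, a lung chemokine, went from 3, 2.38 and 3.37 CPM to 0.118, 0.217 and 0.0584 CPM (log2 -4.38, SE 0.39, adjusted p = 7.59e-08), and overlapped the induced control. Scrg1, a cartilage-associated secreted protein, fell from 3.93, 2.31 and 2.98 CPM to 0.177, 0.217 and 0.175 CPM, below the induced control at 2.1, 0.81 and 1.15 CPM. Ldb2, a LIM-domain binding protein, was at 0.53, 0.65 and 0.467 CPM against 5.93, 6.36 and 7.45 CPM. Wnt16 and the neurotrophin receptor Ntrk3 fell by 3.41 and 3.53 log2 units, and Tmem178 and the fatty acid transporter Slc27a6 by 3.71 and 3.52.

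Others went below both groups. Meox1, a homeobox factor of somites, was at 0.177, 0.163 and 0.117 CPM against 1.5, 0.643 and 1.42 CPM in uninduced cells and 1.58, 0.729 and 0.601 CPM in the induced control. Acan, the cartilage proteoglycan aggrecan, was at 1.12, 1.35 and 1.23 CPM, below the uninduced 2.5, 3.28 and 1.94 CPM, whereas the induced control was above them at 10.6, 6.81 and 5.06 CPM. Its fall against uninduced cells (log2 -1.05, adjusted p = 0.0127) was not called without uninduced replicate 2 (adjusted p = 0.0656). Olfml2a gave 0.706, 0.65 and 0.234 CPM against 2.31, 1.09 and 2.07 CPM.

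Some genes fell by at least 2-fold but stayed above the induced control. Tnfsf15, a TNF family cytokine, was at 1.06, 1.63 and 0.818 CPM against 4.87, 5.27 and 4.92 CPM in uninduced cells and 0.351, 0.891 and 0.2 CPM in the induced control. The last difference was not called without double-knockdown replicate 2 (adjusted p = 0.087) or induced-control replicate 3 (adjusted p = 0.102). Pde8b, a cyclic AMP phosphodiesterase, held 10.4, 9.21 and 9.64 CPM between 21.1, 22.5 and 21.2 CPM and 4.68, 4.29 and 3.5 CPM. Avpr1a, a vasopressin receptor, and Rab3c, a vesicle GTPase, lay between in the same way, 1.17 and 1.28 log2 units above the induced control. So did Ppm1e, a phosphatase, and Cyp4a12b, a fatty acid hydroxylase, at log2 values of 1.42 and 1.26. For Ppm1e the call against the induced control was lost without its replicate 3 (adjusted p = 0.0778) or without double-knockdown replicate 3 (adjusted p = 0.0507). That of Cyp4a12b was lost without any of 4 libraries, namely induced-control replicates 2 and 3 (adjusted p = 0.128 and 0.0969) and double-knockdown replicates 1 and 3 (adjusted p = 0.117 and 0.0654). The fall of Cyp4a12b against uninduced cells was not called without uninduced replicate 2 (adjusted p = 0.0636).

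Cell division genes rose to an intermediate level. Of 29 replication genes 23 rose and 0 fell against uninduced cells (median 0.58), with 18 below the induced control. Of 26 mitosis genes 25 rose (median 0.60), with 23 below the induced control. Mcm5, a subunit of the replicative helicase, went from 32.2, 30.7 and 28.6 CPM to 57.6, 65.4 and 64.9 CPM, against 79.9, 74.3 and 84 CPM in the induced control. Aurka, a kinase of the spindle poles, rose from 16.3, 14 and 17.5 CPM to 31.9, 39.2 and 42.9 CPM, and the induced control reached 53.3, 63.2 and 70.4 CPM. Foxm1, the transcription factor of G2 genes, was at 52.3, 52.3 and 53.1 CPM, against 29, 28.9 and 28.5 CPM in uninduced cells, and its difference from the induced control, -0.05 (SE 0.06, adjusted p = 0.53), was not called.

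Genes of the p53 response and CDK inhibitors fell in 12 of 25 members and rose in 4, with a median of -0.22, and 14 were above the induced control. Cdkn2b (p15) dropped from 97.7, 96.8 and 93.9 CPM to 47.1, 40.8 and 48.9 CPM, while the induced control was lower still, at 35.6, 29.9 and 34.7 CPM. Fas, a death receptor, gave 37.8, 41 and 50.3 CPM, 19.7, 19.3 and 20 CPM, and 13.6, 14.9 and 11.8 CPM in the same order. Cdkn2a fell from 156, 163 and 121 CPM to 102, 96.9 and 110.3 CPM (log2 -0.51, SE 0.12, adjusted p = 0.00172). Trp53 itself rose by 0.39 log2 units (SE 0.11, adjusted p = 0.00573).

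Secreted signals showed no common direction, with 6 of 20 higher and 8 lower than in uninduced cells (median -0.10), but 11 above the induced control. The shares among all genes were 31.6% higher and 27.2% lower than in uninduced cells, and 18.1% above the induced control. Lif, the cytokine that maintains mouse stem cells, rose from 18.7, 20.7 and 19.7 CPM to 56.2, 70.6 and 54.9 CPM, above the induced control at 27.2, 28.2 and 25.7 CPM (log2 1.17, SE 0.095, adjusted p = 1.56e-07). The metalloproteinase Mmp10 had mean levels of 5.49 CPM in uninduced cells, 6.41 CPM in the induced control and 22.5 CPM in the double knockdown. Cxcl12, a stromal chemokine, fell from 208, 188 and 199.7 CPM to 41, 36.3 and 32.4 CPM, below the induced control at 92.6, 68.4 and 66.4 CPM. Hgf, the growth factor of epithelia that mesenchyme secretes, fell from 7.31, 7.97 and 9.52 CPM to 1.82, 2.01 and 1.46 CPM (log2 -2.22, SE 0.20, adjusted p = 1.02e-07), and Csf1 by 0.70 log2 units.

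Interferon and antigen presentation genes were lower in 18 of 37 cases and higher in 9 against uninduced cells, with a median of -0.38. Against the induced control 11 were higher, which became 7 without double-knockdown replicate 1 or induced-control replicate 3, and 2 were lower. Ddx58, the RNA sensor RIG-I, fell from 50.1, 45.5 and 48.5 CPM to 30.8, 30 and 28.2 CPM, and the induced control overlapped at 31.5, 34.5 and 30.3 CPM. Ifit3, an interferon effector, fell from 3.56, 3.41 and 4.79 CPM to 0.824, 1.3 and 1.05 CPM. H2-K1, an MHC class I chain, rose from 56.1, 57.3 and 59.6 CPM to 91.5, 92.6 and 102 CPM, and the induced control overlapped the uninduced cells. Mx1, an antiviral GTPase, had mean levels of 0.3 CPM in uninduced cells and 1.69 CPM in the double knockdown (log2 2.48, adjusted p = 0.00152).

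Heterochromatin and DNA methylation genes rose in 18 of 33 cases and fell in 0 (median 0.23), with 16 below the induced control. The latter count became 10 without double-knockdown replicate 1. Uhrf1, which recruits the maintenance methyltransferase, went from 33.1, 32.7 and 28.3 CPM to 58, 65.7 and 70 CPM, and Tet2, a DNA demethylase, from 35.3, 37.3 and 35.3 CPM to 73.1, 94.1 and 78.1 CPM. Zfp57, a KRAB zinc finger protein that guards imprints together with TRIM28, rose from 29.5, 30.3 and 33.1 CPM to 66.4, 65.6 and 68.5 CPM. Atf7ip, the partner of SETDB1, had mean levels of 108 CPM in uninduced cells, 118 CPM in the induced control and 169.9 CPM in the double knockdown (log2 0.65 and 0.53). Of 310 genes named Zfp with a number, 63 were higher and 73 lower than in uninduced cells, beside 31.6% and 27.2% among all genes. Clustered protocadherins, adhesion genes of neurons with near-identical copies whose counts are uncertain, fell in 13 of 15 tested members and rose in 0, with a median of -1.21. In the induced control 11 fell and 0 rose, with a median of -0.81.

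Markers of other cell types were counted as well. Of 6 tested macrophage markers 3 rose and 1 fell, and the summed level of the 11 genes went from 9.71 to 11.8 CPM in uninduced libraries to 48.4 to 58.4 CPM, against 62.9 to 72.1 CPM in the induced control. Laptm5, a lysosomal protein of blood cells, made up most of it, at 35.7, 39.9 and 42.9 CPM. Tyrobp and Fcer1g, genes of macrophages and other blood cells, had mean levels of 0.134 CPM or less. For 7 tested endothelial markers, of which 4 rose (2 with the stricter filter) and 1 fell, the sum was 37.4 to 40.3 CPM in uninduced cells and 63.3 to 73.7 CPM in the double knockdown. The angiopoietin receptor Tek supplied 42.7, 46.6 and 38.2 CPM of it, with Cldn5 at 0 reads and Cdh5 at a mean of 0.212 CPM.

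Of 7 tested neural markers 5 rose (3 with the stricter filter or a fit of these groups alone) and 2 fell, with sums of 240.5 to 275 CPM in uninduced cells and 465 to 530.2 CPM in the double knockdown, led by Nes and Tubb3 at mean levels of 222 and 181 CPM. Map2, a microtubule protein of dendrites, fell from 134, 129 and 139 CPM to 44.1, 49.8 and 46.9 CPM. Of 9 tested trophoblast markers 6 rose and 1 fell, with sums of 87.4 to 98.2 CPM and 109.9 to 123 CPM. Elf5 and Tfap2c were at 2.87 and 2.44 CPM and unseen in uninduced cells, and Tpbpa had 0 reads. Of 6 tested primitive endoderm markers 3 rose and 2 fell, with sums of 178 to 197 CPM in uninduced cells and 106 to 123 CPM in the double knockdown, where Sox17 and Afp were at 0.0181 and 0.116 CPM. All 4 tested adipocyte markers fell, with sums of 41.3 to 49.6 CPM and 14.7 to 16.7 CPM, and Adipoq was at 0.0181 CPM. In the induced control the sums were 74.9 to 88.6 CPM for endothelial, 384 to 485 CPM for neural and 160.1 to 189.8 CPM for trophoblast markers. For primitive endoderm markers the sum there was 117 to 132 CPM. All 4 adipocyte markers fell there too, with a sum of 12.3 to 13.5 CPM. The part of such cells in the changes described was not tested.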

How the data were processed

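RNA-seq of 12 libraries in 4 groups of 3 was used. The deposited values are raw read counts per gene, not normalised. Reads were aligned with TopHat2 2.0.12 and Bowtie 1.1 and counted with HTSeq, per the submitters' processing notes. The genome build of the count table and the use of strand in counting are not given in the sources used here.

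Genes with a count of at least 10 in enough libraries and a total of at least 15 were kept (14520 of 24207). All 12 libraries entered 1 model in edgeR 4.0.16 (TMM factors, quasi-likelihood test, Benjamini-Hochberg adjustment, limma 3.58.1, R 4.3.3). The code had been run on simulated counts in which few genes were changed. Far more genes differ in these data, so that run does not measure the rate of false calls here. Values are TMM-normalised CPM. Figures were drawn with matplotlib 3.10.9 in Python 3.11.15. Where a group had 0 reads, 3 counts summed over its libraries stood in as a floor for the fold, and ratios on 1 to 3 reads have exact 95% counting intervals. Both cover counting error only.

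Genes were named by rule: the targets and factors, the 8 largest rises and falls without overlap at 1 CPM or more, up to 4 members per list with the smallest p and 1 in the other direction, and 6 genes each way that differed most from the induced control, among genes called at least 2-fold higher or at least 2-fold lower than uninduced cells (1 CPM or more in the higher group) and among genes not called against them (at least 2-fold from the induced control and a mean of 5 CPM or more in some group). Predicted, RIKEN, clone and pseudogene names were left out. Some genes that the rule names are not reported here. Other members of the lists were named after their values were seen. The genes and lists were chosen with earlier results of these data known.

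The labels do not say whether the replicate numbers pair the samples. Deviations of same-numbered libraries of the double knockdown and induced control had correlations of 0.31, 0.14 and 0.19, against -0.21 to 0.03 for different numbers. Such values do not establish pairing, since induced-control replicate 2 and uninduced replicate 3 reached 0.39. For same-numbered libraries of the double knockdown and uninduced cells the correlations were 0.03, -0.05 and -0.04. Alternatives were other scalings, filters, DESeq2 1.42.0, fits of 2 groups only, a replicate block and leaving out each library.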

Additional observations from a re-analysis of the deposited data

Results flagged for a closer look

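Among the 244 genes named or checked by name, 5 were called in opposite directions against uninduced cells in the double knockdown and the induced control, and the direct test between them (edgeR quasi-likelihood) called the difference. Trim28 was below uninduced cells in the double knockdown and above them in the induced control, a log2 difference of -1.67. Cnn1 was above uninduced cells in the double knockdown and below them in the induced control, a difference of 1.89. Ly6c1, a surface protein of fibroblast and endothelial subsets, did the same with 221, 192 and 205 CPM against 131, 114 and 116 CPM, a difference of 0.77. Acan went the other way, a difference of -2.59, and so did Pdk1, with 22.4, 36.3 and 29.4 CPM against 54.3, 74.4 and 75.5 CPM, a difference of -1.21. Trim28 is the target of one of the hairpins.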

How the results depend on the processing

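The counts of genes called stayed within 1.5 times their values under every alternative run. Against uninduced cells they ranged from 4083 to 5324 higher and from 3196 to 4328 lower, and leaving out each library in turn gave 4148 to 4395 and 3471 to 3703. Against the induced control leaving out each library gave 1990 to 2678 higher and 1999 to 2988 lower, and for the induced control against uninduced cells 4413 to 4820 and 4234 to 4724. Of 488 contrasts of named genes, 432 kept their call under every alternative, 56 changed it under at least 1, and 0 reversed. With the replicate number as a block, whose pairing of samples is not established, 4618 genes were higher and 4019 lower than in uninduced cells. Egln3 (adjusted p = 0.0454), Myl9 (adjusted p = 0.0458) and Trh (adjusted p = 0.0223) were then called. In the comparison with the induced control the block gave 2732 higher and 2805 lower genes, or 2899 and 3015 with these groups alone, an alternative chosen after seeing the data. Depth limits genes near 3 reads in a library, 0.163 to 0.183 CPM.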

Other observations

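Of 17 glycolysis genes 6 rose and 2 fell against uninduced cells (median 0.06), while 9 were below the induced control and 1 above it. Among all genes 31.6% rose and 27.2% fell against uninduced cells, and 18.5% were below and 18.1% above the induced control. Slc2a1, the glucose transporter GLUT1, had mean levels of 109 CPM in uninduced cells, 119.6 CPM in the double knockdown and 242 CPM in the induced control. Hk2, a hexokinase, rose by 0.84 log2 units. Pdk1, a kinase that inhibits pyruvate dehydrogenase, fell by 0.60 log2 units (adjusted p = 0.00219) and was 1.21 below the induced control.

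One-carbon and threonine genes rose in 11 of 15 cases and fell in 0 (median 0.42). Tdh, the threonine dehydrogenase of mouse stem cells, was unseen in uninduced cells and had means of 15.6 CPM in the double knockdown and 35.9 CPM in the induced control. Gldc, of the glycine cleavage system, exceeded both groups, with means of 0.853 CPM in uninduced cells, 9.34 CPM in the induced control and 30.2 CPM in the double knockdown (log2 5.14 and 1.68). Of 76 tested oxidative phosphorylation genes 17 rose and 12 fell (median 0.02), beside 31.6% and 27.2% among all genes. The count of 17 became 10 without double-knockdown replicate 3. Against the induced control 7 were higher, which became 14 with the replicate block and these groups alone, 14 without induced-control replicate 1 and 1 without double-knockdown replicate 1 or 3.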
